A study of Mus musculus with 30 samples.

Results

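MePipHCA and DMHCA were compared in primary mouse hepatocytes, each at 1 uM, with 2 libraries per compound. These 4 libraries, all that the hepatocyte count table holds for the pair, were taken by the treatment in their titles from the 30 libraries of the study. Both compounds are hydroxycholenamides, synthetic sterol amides made as mimetics of desmosterol. DMHCA carries a dimethyl amide and MePipHCA a methylpiperidinyl amide, so the comparison sets 2 amides on a shared core side by side at 1 matched dose and time. The study's title asks how cells discriminate desmosterol from its mimetics in the regulation of the LXR and SREBP pathways.

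The study exposed 2 mouse cell types, hepatocytes and thioglycollate-elicited macrophages, to 5 ligands or vehicle and sequenced their polyadenylated RNA. Hepatocytes grew in Hepatozyme medium with 10% FBS. All groups, vehicle included, were moved 24 h before treatment into lipid-deficient serum at 10%, supplied with mevalonate (50 uM) and with mevastatin (10 uM), a statin, so every value below was measured in the presence of a statin. The ligands were DMHCA, MePipHCA, GW3965 and T0901317 at 1 uM and desmosterol at 10 uM, the vehicle was DMSO or ethanol, and RNA was isolated 18 to 20 h after the ligand was added. The 12 hepatocyte libraries form 6 groups of 2. Strain, sex, age and the number of mice are not given in the labels, nor is it said whether replicates came from separate animals or cultures, so p-values measure the spread between these libraries, which may be technical.

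The SREBP and LXR systems frame the comparison. SREBP-2 and SREBP-1 are transcription factors held in the endoplasmic reticulum with SCAP and INSIG, and when sterols are scarce they are cleaved and switch on the genes of cholesterol and fatty acid synthesis and sterol uptake. Sterols such as desmosterol retain the complex in the endoplasmic reticulum. LXR-alpha and LXR-beta are nuclear receptors that are activated by oxysterols and desmosterol. They induce the efflux transporters Abca1 and Abcg1 and, in liver, Srebf1 and lipid synthesis, and this hepatic action is the known drawback of full LXR agonists.

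The hepatocyte libraries held 6627812 to 18626562 counts, with 13854384 and 15258605 for DMHCA and 11959832 and 18626562 for MePipHCA. Hepatocyte markers were high in the 4 libraries: the 10 hepatocyte markers summed to 32300 and 33322 CPM with DMHCA and 33325 and 30083 CPM with MePipHCA, where CPM are counts scaled to library size, and albumin alone averaged 20988 CPM. Among other liver cells, the 11 macrophage and Kupffer markers found summed to 308 and 184 CPM with DMHCA and 275 and 246 CPM with MePipHCA, most of it Cd68, the endothelial markers to 74.3 to 84.8 CPM, and the cholangiocyte markers, mostly Spp1, to 381 to 466 CPM. Stellate markers summed to 4.01 to 6.46 CPM, and those of mesothelial, B, T and NK cells and neutrophils to under 1 CPM in all 4 libraries. Of the 10 hepatocyte markers tested, 3 were lower with MePipHCA and are described with the secreted proteins, and of the 10 macrophage markers tested 0 were called by edgeR, DESeq2 or limma-voom, with 0 at an unadjusted p of 0.05.

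Most enzymes of cholesterol synthesis, the efflux transporter Abca1, haptoglobin and other secreted liver proteins, and several cell cycle genes were lower in hepatocytes with MePipHCA than with DMHCA. A smaller set of genes, with the mitochondrial enzyme Aldh1l2 and the activin subunit Inhba among the largest differences, was higher. Of 13176 genes tested, 435 (3.3%) passed an adjusted p of 0.05 by edgeR's quasi-likelihood test with Benjamini-Hochberg adjustment, here termed called. MePipHCA was higher for 170 (1.29%) and lower for 265 (2.01%). At an unadjusted p of 0.05 the number was 2100. Most differences were small: of the called genes, 18 were at least 2-fold higher and 28 at least 2-fold lower. The median log2 fold change (MePipHCA over DMHCA throughout) was 0.48 among the higher genes, −0.54 among the lower and −0.00043 over all genes tested.

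Well-expressed genes were called more often. Of the 3294 genes with the lowest mean CPM, up to 5.52, 8 were called (0.243%), against 251 of the 3294 genes above 73.5 CPM (7.62%). Called genes also lay above the rest per transcript length, with a median of 15.7 RPKM (reads per kilobase of transcript, scaled to library size) for the higher genes, 31.8 RPKM for the lower and 7.45 RPKM for genes not called. Median transcript lengths were 4171.5 bases for higher genes, 2813 for lower genes and 2747 for genes not called. The part of level and length in the calls was not tested. The count of higher genes also rested on which library was present: it was 55 without MePipHCA replicate 1, 68 without MePipHCA replicate 2, 68 without DMHCA replicate 1 and 311 without DMHCA replicate 2. The lower genes then numbered 122, 142, 169 and 468, so the lower genes outnumbered the higher in each.

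**Figure D1:**
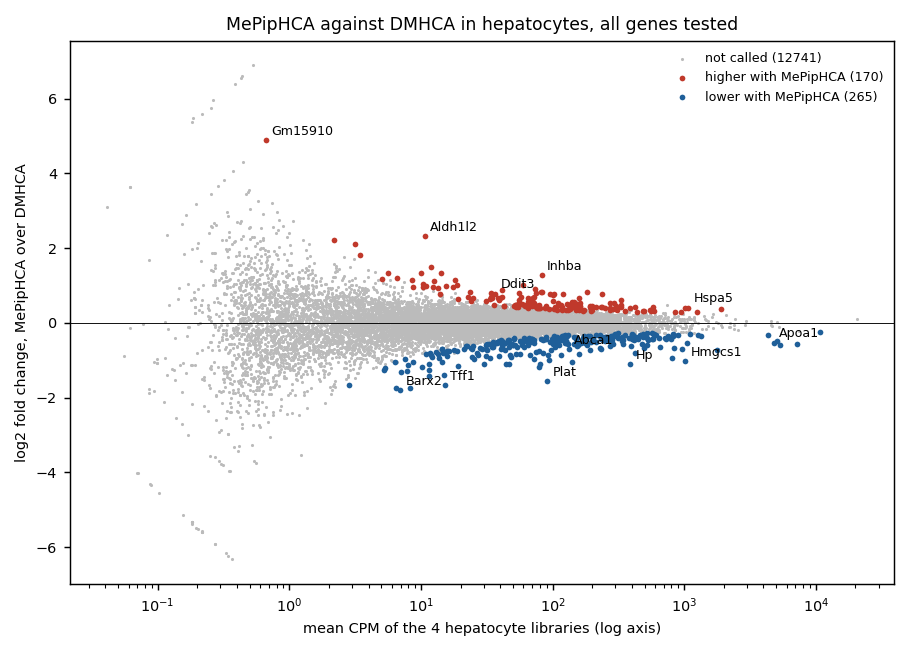
Each point is 1 of the 13176 genes tested, with its mean level over the 4 libraries (CPM, log axis) on the horizontal axis and the log2 fold change of MePipHCA over DMHCA on the vertical axis. The 170 genes called higher and 265 called lower are coloured, and cholesterol synthesis genes lie among the well-expressed lower genes.

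Each compound was also set against vehicle, in comparisons that share the compound libraries with the one above and the vehicle libraries with each other. MePipHCA differed from vehicle at 286 of 13176 genes (2.17%), 104 higher and 182 lower. Leaving out 1 library lowered this to 121 without MePipHCA replicate 1, 114 without MePipHCA replicate 2 and 143 without vehicle replicate 1. DMHCA differed from vehicle at 0 genes (0%) by edgeR, with 615 at an unadjusted p of 0.05, and DESeq2 and limma-voom also called 0. Without DMHCA replicate 2 edgeR called 27 genes, and without vehicle replicate 2 it called 6. In level, the 20 cholesterol synthesis genes summed to 4828 and 5075 CPM with DMHCA, 4807 and 4836 CPM with vehicle, and 2846 and 2985 CPM with MePipHCA. The median log2 fold change over vehicle of those genes was 0.04 for DMHCA and −0.68 for MePipHCA.

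Cholesterol synthesis was lower with MePipHCA almost throughout. Of the 20 enzymes tested, 17 were lower with MePipHCA and 0 higher, against 2.01% of all genes lower. All 20 log2 fold changes were below 0, and their median was −0.82. The promoters of the 4 called enzymes with the lowest log2 fold changes are shown because they carry, or lack, the letters through which SREBP-2 and its partner NF-Y are known to act. Capitals mark TCACNCCAC, a short form of the sterol regulatory element, and CCAAT, the NF-Y motif, which reads ATTGG where it lies on the opposite strand. Each is the 250 bases before the transcription start from RefSeq (GRCm38.p6), 5′ to 3′ on the gene's strand. They lie at chr13:119690101-119690350, plus strand for Hmgcs1, at chr8:122443423-122443672, minus strand for Mvd, at chr10:76531355-76531604, plus strand for Lss and at chr17:12960726-12960975, minus strand for Acat2.
Hmgcs1: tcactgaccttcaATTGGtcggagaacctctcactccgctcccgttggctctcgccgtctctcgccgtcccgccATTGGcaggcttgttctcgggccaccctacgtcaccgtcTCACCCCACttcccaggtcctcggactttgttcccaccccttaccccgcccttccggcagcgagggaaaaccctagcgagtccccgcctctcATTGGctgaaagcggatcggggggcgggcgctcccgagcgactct
Mvd: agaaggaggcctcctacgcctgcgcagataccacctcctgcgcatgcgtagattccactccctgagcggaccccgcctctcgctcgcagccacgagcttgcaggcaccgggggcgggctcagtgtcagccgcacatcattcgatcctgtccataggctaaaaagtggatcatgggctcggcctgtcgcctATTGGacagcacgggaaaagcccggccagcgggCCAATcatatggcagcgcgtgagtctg
Lss: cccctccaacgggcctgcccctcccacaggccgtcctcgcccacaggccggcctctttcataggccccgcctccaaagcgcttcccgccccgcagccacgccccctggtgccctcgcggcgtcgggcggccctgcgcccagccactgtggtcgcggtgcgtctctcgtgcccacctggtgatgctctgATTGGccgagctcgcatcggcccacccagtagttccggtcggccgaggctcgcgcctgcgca
Acat2: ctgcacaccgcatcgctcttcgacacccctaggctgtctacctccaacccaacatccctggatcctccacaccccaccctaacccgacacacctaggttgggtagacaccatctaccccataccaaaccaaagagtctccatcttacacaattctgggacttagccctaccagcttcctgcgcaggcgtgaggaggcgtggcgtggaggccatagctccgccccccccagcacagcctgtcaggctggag
The Hmgcs1 promoter holds the sterol element 137 bases before the start with CCAAT letters on both sides of it, Mvd and Lss hold CCAAT letters only, and Acat2 holds neither.

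RefSeq promoters of 300 bases (250 before and 50 after the start) were matched by symbol for 15 of the 20 enzymes. On either strand, 1 of the 15 held TCACNCCAC and 12 held CCAAT, against 1.24% and 37.4% of all 32851 promoters in that table. GGGCGG, the GC box, was present in 14 of the 15 and in 35.7% of all promoters. Of the 12 matched enzymes that were lower with MePipHCA, 9 held CCAAT. Idi1, Ebp and Tm7sf2, which were matched but not called, held it too. These letters describe the windows and do not show binding.

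At the entry of the pathway, Acat2, which joins acetyl-CoA units, had 111 and 108 CPM with DMHCA and 49.1 and 47.5 CPM with MePipHCA, a log2 fold change of −1.18 ± 0.11 (SE, n = 2 libraries per compound as for all values here; adjusted p = 2.57e-08). Here and below a value in the form −1.18 ± 0.11 is a log2 fold change with its SE. Hmgcs1 (HMG-CoA synthase; NM_145942, mm10 chromosome 13, 119690351 to 119708260) was the most abundant of these transcripts, with 1279 and 1443 CPM with DMHCA and 637 and 697 CPM with MePipHCA beside 1226 and 1377 CPM with vehicle. Its log2 fold change was −1.03 ± 0.08 (95% interval −1.19 to −0.87, adjusted p = 1.74e-09), so DMHCA hepatocytes carried 2.04 times as much. The DMHCA libraries overlapped vehicle and both MePipHCA libraries lay apart below them.

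The mevalonate kinases and the enzymes that build squalene were also lower. The log2 fold changes were −0.94 ± 0.15 for Mvk, −0.86 ± 0.13 for Pmvk and −1.11 ± 0.15 for Mvd, the decarboxylase that makes isopentenyl diphosphate, at 43.02 and 38.6 CPM with DMHCA and 19.4 and 18.5 CPM with MePipHCA. Fdps, which makes farnesyl diphosphate, had −0.97 ± 0.12 and Fdft1, the squalene synthase, −0.86 ± 0.11. Sqle, the oxidase that commits squalene to sterols, was among the least changed of the called enzymes at −0.49 ± 0.09. Lss, which closes squalene epoxide into lanosterol, had 114 and 106 CPM with DMHCA and 51.9 and 51.6 CPM with MePipHCA, a log2 fold change of −1.09 ± 0.10 (adjusted p = 6.04e-08). An unnamed transcript, 4930483K19Rik, overlaps Lss on the other strand, and since the headers state no strand setting its reads cannot be told apart from those of Lss.

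Among the enzymes that turn lanosterol into cholesterol, Cyp51 had a log2 fold change of −0.80 ± 0.09, Nsdhl −0.84 ± 0.09, Dhcr7 −0.79 ± 0.10, Sc5d −0.63 ± 0.08, Msmo1 −0.59 ± 0.08 and Hsd17b7 −0.53 ± 0.10, all called. The 3 enzymes not called were Idi1, at 3.13 to 7.95 CPM, with a log2 fold change of −1.07 (95% interval −1.84 to −0.29), Ebp with −0.28 (−0.54 to −0.02) and Tm7sf2 with −0.12 (−0.44 to 0.20). The count of lower enzymes was 15 to 17 under every alternative run.

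**Figure D2:**
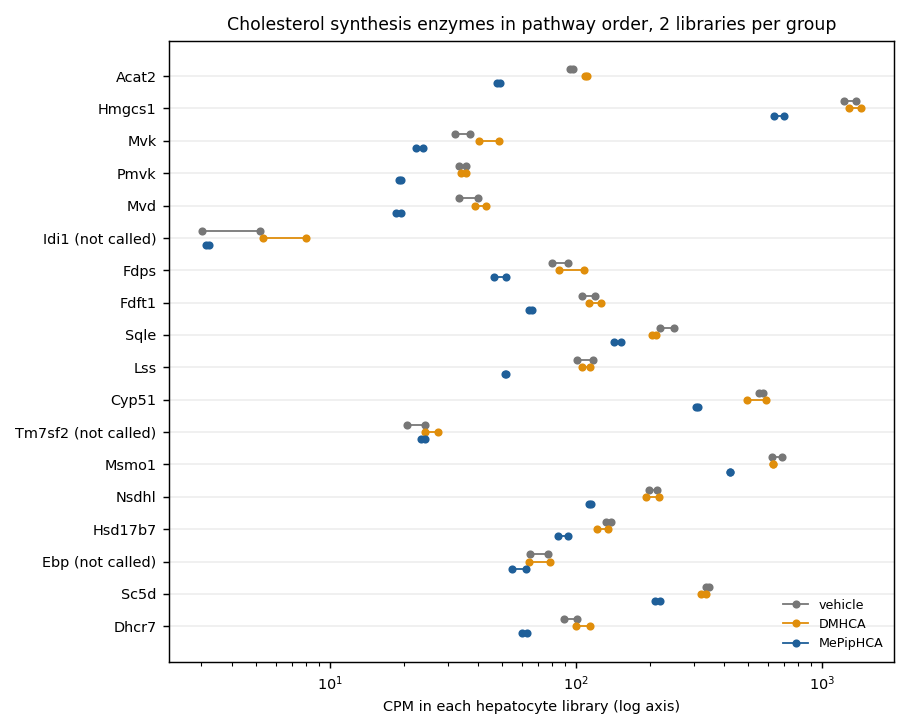
CPM (log axis) of 18 of the cholesterol synthesis enzymes in each vehicle, DMHCA and MePipHCA hepatocyte library. For the 15 called enzymes drawn both MePipHCA points lie below both DMHCA points, and the DMHCA mean lies closer to vehicle than the MePipHCA mean does. The enzymes were picked as called, so the separation is no further support.

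Outside the pathway itself, 4 of 9 other SREBP-2 targets tested were lower with MePipHCA and 0 higher. Over all genes tested 2.01% were lower. The list's median log2 fold change was −0.34. Insig1, the retention protein that SREBP induces as its own brake, had 126 and 124 CPM with DMHCA and 58.6 and 67.1 CPM with MePipHCA, a log2 fold change of −0.99 ± 0.10 (adjusted p = 1.14e-07). Stard4, a cytosolic sterol carrier, had 34.2 and 48.1 CPM with DMHCA and 29.8 and 28.5 CPM with MePipHCA and a log2 fold change of −0.50 ± 0.14. Its call was less firm, being lost without DMHCA replicate 2 (adjusted p = 0.449), MePipHCA replicate 1 (0.19), MePipHCA replicate 2 (0.265), in a fit of the 4 libraries alone (0.111), at a common depth (0.155) and without GW3965 replicate 2 (0.0505). Without either MePipHCA library 2 of the 9 were called. Srebf2 itself had a log2 fold change of −0.31 (95% interval −0.50 to −0.12, adjusted p = 0.0692) and was not called. The lysosomal cholesterol exporters Npc1 and Npc2 had log2 fold changes of 0.12 and −0.07 and were not called.

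Fatty acid synthesis was lower with MePipHCA at 8 of 18 genes tested and higher at 0, against 2.01% of all genes lower. The list's median log2 fold change was −0.37. The lowest was Scd2, a stearoyl-CoA desaturase that is scarce in adult hepatocytes, at 10.1 and 9.92 CPM with DMHCA and 3.47 and 2.595 CPM with MePipHCA and a log2 fold change of −1.74 ± 0.23 (adjusted p = 1.59e-05). Acss2, which makes acetyl-CoA from acetate and is a known SREBP target, had 55.7 and 46.1 CPM with DMHCA and 26.6 and 28.3 CPM with MePipHCA, −0.89 ± 0.13, and it overlaps Acss2os on the other strand. Fads2, the desaturase of polyunsaturated fatty acids, had 155 and 146 CPM with DMHCA and 81.9 and 84.6 CPM with MePipHCA, a log2 fold change of −0.85 ± 0.09 (adjusted p = 4.07e-07). Gpam, which starts triglyceride synthesis, had −0.54 ± 0.10, and its call was lost without MePipHCA replicate 1 (adjusted p = 0.0682). The remaining lower genes, Aacs, Fads1, Acly and Fasn, had log2 fold changes of −0.40 to −0.32.

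Fasn, the fatty acid synthase that both SREBP-1c and LXR are known to induce, had 463 and 432 CPM with DMHCA and 363 and 352 CPM with MePipHCA and a log2 fold change of −0.32 ± 0.08 (adjusted p = 0.0153). Its level with vehicle was 381 and 345 CPM, below DMHCA and near MePipHCA, with log2 fold changes over vehicle of 0.30 for DMHCA and −0.02 for MePipHCA, neither called. The Fasn call was lost without DMHCA replicate 1 (adjusted p = 0.114), MePipHCA replicate 1 (0.11), MePipHCA replicate 2 (0.171) and in a fit of the 4 libraries alone (0.0651). Srebf1, the gene of SREBP-1, had 109 and 89.7 CPM with DMHCA and 75.6 and 80.3 CPM with MePipHCA and a log2 fold change of −0.35 ± 0.10 (95% interval −0.56 to −0.13, adjusted p = 0.0663). It was not called here but passed by DESeq2's Wald test (adjusted p = 0.0349), with no filter on low counts (0.0313), at a common depth (0.0497) and without DMHCA replicate 2 (0.00614), and it overlaps Rai1 on the other strand. Scd1, the main liver desaturase, had 1071 and 1179.8 CPM with DMHCA and 971 and 944 CPM with MePipHCA and −0.23 ± 0.07 (adjusted p = 0.0809), not called, and passed by DESeq2's Wald test (0.0433), with no filter (0.0226), without DMHCA replicate 1 (0.0331) and without either T0901317 library (0.0448 and 0.0463).

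The number of lower fatty acid genes was 5 without MePipHCA replicate 1 and 12 by DESeq2. Of 19 genes of sterol esters, triglycerides and lipid droplets tested, 1 was lower and 0 higher, against 2.01% of all genes lower. It was Lpin1, a phosphatidate phosphatase, at 62.6 and 62.2 CPM with DMHCA and 34.6 and 32.4 CPM with MePipHCA, a log2 fold change of −0.90 ± 0.13 (adjusted p = 5.16e-05).

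Of 13 LXR targets tested, 2 were lower with MePipHCA and 0 higher, against 2.01% of all genes lower and 1.29% higher, with a median log2 fold change of −0.25. Abca1, the transporter that loads cholesterol onto apoA-I (NM_013454, mm10 chromosome 4, 53030789 to 53159895), had 166 and 163 CPM with DMHCA and 100.2 and 103 CPM with MePipHCA. Vehicle libraries had 190.0 and 158 CPM, so the DMHCA libraries lay within the range of vehicle and both MePipHCA libraries lay below it. The log2 fold change of MePipHCA over DMHCA was −0.70 ± 0.09 (95% interval −0.89 to −0.51, adjusted p = 1.58e-05) and over vehicle −0.78 (adjusted p = 4.46e-06). Lpcat3, an LXR-induced enzyme that puts polyunsaturated chains into phospholipids, was the other. With vehicle it had 272 and 284 CPM, near MePipHCA at 261 and 267 CPM, and DMHCA lay above at 333 and 337 CPM. Over vehicle neither compound was called, at −0.07 for MePipHCA and 0.27 for DMHCA. Between the compounds Lpcat3 had −0.35 ± 0.08. Its call was lost without MePipHCA replicate 1 (adjusted p = 0.152) and MePipHCA replicate 2 (0.0879), and it overlaps Emg1 on the other strand.

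Abcg1, the partner transporter for efflux to HDL, was near the limit of detection, at 0.437 and 0.854 CPM with DMHCA and 0.0827 and 0.318 CPM with MePipHCA, and Mylip, an LXR-induced ubiquitin ligase, had 0.802 and 0.526 CPM with DMHCA and 0.248 and 1.11 CPM with MePipHCA. At these levels a difference could not be resolved, with 95% intervals of the log2 fold change of −3.08 to 0.02 and −1.61 to 1.83. Abcg5 and Abcg8, which export sterols into bile, had log2 fold changes of −0.93 (−1.79 to −0.07) and −0.73 (−1.72 to 0.25) and were not called. Apoe had −0.19, Apoc1 −0.25 and Nr1h3, the gene of LXR-alpha, −0.32, none called. None of the 9 LXR target promoters matched held the DR4 element in its exact form, AGGTCA followed by AGGTCA with 4 bases between on either strand, which was in 0.015% of all promoters. Cyp7a1, the rate-limiting enzyme of bile acid synthesis, had too few counts to be tested.

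Of 25 tested genes of the stress response that ATF4 and CHOP direct, 4 were higher with MePipHCA (Ddit3, Phgdh, Atf3 and Cth) and 0 lower, against 1.29% of all genes higher, and the list's median log2 fold change was 0.26. Ddit3, the gene of CHOP, had 57.2 and 35.5 CPM with MePipHCA and 28.8 and 24.6 CPM with DMHCA, a log2 fold change of 0.79 ± 0.19 (adjusted p = 0.0125). The libraries did not overlap, but MePipHCA replicate 1 stood well above replicate 2, and the call was lost without DMHCA replicate 2 (adjusted p = 0.075) and MePipHCA replicate 1 (0.512). Mars overlaps Ddit3 on the other strand. Phgdh, which begins serine synthesis, had 30.4 and 30.9 CPM with MePipHCA and 19.5 and 18.98 CPM with DMHCA (0.67 ± 0.16), Cth, which makes cysteine, 188 and 187 CPM with MePipHCA and 138 and 136 CPM with DMHCA (0.45 ± 0.09), and Atf3, an early stress factor, 78.9 and 78.3 CPM with MePipHCA and 56.4 and 49.9 CPM with DMHCA (0.57 ± 0.15).

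None of these 4 calls was firm to the loss of a library. Phgdh lost its call without each of the 4 libraries in turn (adjusted p from 0.0595 to 0.125) and at a common depth (0.101), Atf3 lost it without each of the 4 libraries in turn (adjusted p from 0.0644 to 0.192), and Cth lost it without MePipHCA replicate 1 (adjusted p = 0.0652) and MePipHCA replicate 2 (0.0558). Without MePipHCA replicate 1, 0 of the 25 were called by edgeR; with all libraries 13 of the 25 were higher at an unadjusted p of 0.05, and DESeq2 called 4 and limma-voom 7. Trib3, a pseudokinase induced by CHOP, had 119.8 and 102 CPM with MePipHCA and 94.3 and 72.7 CPM with DMHCA and a log2 fold change of 0.41 ± 0.13 (adjusted p = 0.0693). It was not called here, and passed with no filter on low counts (0.0112), by limma-voom (0.036) and without DMHCA replicate 1 (0.013). Over vehicle, Trib3 was higher with MePipHCA by 0.78 (adjusted p = 0.00048). Atf4 had 0.19, Asns 0.34 and Chac1 0.34, none called.

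The Atf3 promoter is shown because it is the only one of the called members matched to a promoter (Ddit3, Phgdh and Atf3) that holds TGATGNAA, the letters of the C/EBP-ATF response element that ATF4 is known to bind. Capitals mark it 110 bases before the start, where it reads as its complement. The 250 bases lie at chr1:191183334-191183583, minus strand (GRCm38.p6).
Atf3: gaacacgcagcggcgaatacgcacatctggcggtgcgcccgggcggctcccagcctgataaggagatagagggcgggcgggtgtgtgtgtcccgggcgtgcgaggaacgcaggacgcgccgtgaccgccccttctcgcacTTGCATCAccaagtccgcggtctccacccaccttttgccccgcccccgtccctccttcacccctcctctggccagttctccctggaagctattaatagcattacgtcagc
Over the list, 9 of 23 matched promoters held these letters on either strand, against 3.97% of all promoters.

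In the endoplasmic reticulum, 1 of 20 sensors and chaperones of the unfolded protein response was higher with MePipHCA and 0 lower. Over all genes tested 1.29% were higher, so 1 call says little about the list, whose median log2 fold change was 0.06. The called gene was Hspa5, the major luminal chaperone BiP, with 1258 and 1188 CPM with MePipHCA and 898 and 943 CPM with DMHCA. Vehicle libraries had 968 and 939 CPM of Hspa5. Its log2 fold change was 0.41 ± 0.07 (adjusted p = 0.000976), and the call held under all 20 alternatives. Xbp1 had 0.27 (0.09 to 0.46), Hsp90b1 0.23 (0.06 to 0.40) and Herpud1 −0.39 (−0.62 to −0.15), none called.

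Several secreted liver proteins were lower with MePipHCA. Over all genes tested 2.01% were lower. Among acute-phase genes 4 of 18 tested were lower and 0 higher, the same count under every alternative run. Hp, the haemoglobin scavenger haptoglobin, had 497 and 564 CPM with DMHCA and 255 and 237 CPM with MePipHCA beside 554 and 411 CPM with vehicle, a log2 fold change of −1.11 ± 0.10 (adjusted p = 6.04e-08). Hamp, the iron-regulating hormone hepcidin, had 59.6 and 60.96 CPM with DMHCA and 34.7 and 22.3 CPM with MePipHCA (−1.09 ± 0.17, adjusted p = 0.00019). The fibrinogen chains Fgb and Fga had −0.73 ± 0.09 and −0.66 ± 0.10, from 2042 and 2356 CPM with DMHCA and 1379 and 1280.2 CPM with MePipHCA for Fgb and 559.8 and 647 CPM with DMHCA and 381 and 383 CPM with MePipHCA for Fga. In each of these 4 genes both MePipHCA libraries lay below both DMHCA libraries. With 2 libraries per compound, such separation of called genes is no further support.

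Of 20 plasma protein genes tested, 3 were lower and 0 higher, against 2.01% of all genes lower. Apoa1, the main protein of HDL, had 6144 and 5203 CPM with DMHCA and 3916 and 3922 CPM with MePipHCA and a log2 fold change of −0.53 ± 0.08 (adjusted p = 5.65e-05). Ahsg, the plasma glycoprotein fetuin-A, had −0.48 ± 0.08 (adjusted p = 0.000625) and overlaps Gm30505 on the other strand. Ttr, which carries thyroid hormone, had −0.35 ± 0.09, and its call was lost without DMHCA replicate 1 (adjusted p = 0.313), MePipHCA replicate 1 (0.255), MePipHCA replicate 2 (0.0621) and in a fit of the 4 libraries alone (0.054). The number called in this list was 2 without either MePipHCA library and 7 with no filter on low counts. Hnf4a, the factor that maintains hepatocyte identity, had a log2 fold change of −0.42 and was lower, while Alb had 0.10 (−0.09 to 0.28) and was not called. In bulk RNA fewer cells of a type and less RNA per cell cannot be told apart.

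Genes of detoxification and redox defence were mixed. Over all genes tested 2.01% were lower and 1.29% higher. Of 15 NRF2-responsive genes tested, 4 were lower and 1 higher with MePipHCA, and 2 were lower without MePipHCA replicate 2. G6pdx, the source of NADPH in the pentose phosphate pathway, had −0.74 ± 0.13 and overlaps Ikbkg on the other strand, and Hmox1, the haem oxygenase, had −0.42 ± 0.08. Gclc, the rate-limiting step of glutathione synthesis, had −0.55 ± 0.11, and its call was lost without MePipHCA replicate 2 (adjusted p = 0.0779). Nqo1, a quinone reductase, was the higher member, with 11.7 and 11.6 CPM with MePipHCA and 5.395 and 6.44 CPM with DMHCA (0.97 ± 0.24). Vehicle libraries had 13.5 and 9.07 CPM of Nqo1, and the log2 fold change over vehicle was 0.02 for MePipHCA and −0.95 for DMHCA, neither called. The call between the compounds was lost without DMHCA replicate 1 (adjusted p = 0.196), MePipHCA replicate 1 (0.118), MePipHCA replicate 2 (0.11) and at a common depth (0.0616).

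Among 15 PXR and CAR targets tested, 2 were lower and 0 higher, against 2.01% of all genes lower. Aldh1a1, a retinaldehyde dehydrogenase, had 984 and 1138 CPM with DMHCA and 549 and 555 CPM with MePipHCA (−0.94 ± 0.08, adjusted p = 8.41e-09), with the caution that its near copy Aldh1a7 can share reads with it. Abcc3, an exporter of bile acid conjugates, had −0.28 ± 0.08 (adjusted p = 0.0497) and was lost under 9 of the 20 alternatives, among them leaving out DMHCA replicate 1 (0.153), MePipHCA replicate 1 (0.427) and MePipHCA replicate 2 (0.117). Of 3 AhR targets tested, Tiparp was higher (0.42 ± 0.09) and Cyp1a2 lower (−0.61 ± 0.16), where 1.29% of all genes were higher. Tiparp lost its call without DMHCA replicate 1 (adjusted p = 0.0917) and MePipHCA replicate 1 (0.166), and it overlaps 4931440P22Rik on the other strand. Cyp1a2 lost its call without DMHCA replicate 1 (adjusted p = 0.219), MePipHCA replicate 1 (0.374), MePipHCA replicate 2 (0.0568) and in a fit of the 4 libraries alone (0.054).

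In bile acid, fuel and glucose metabolism 1 or 2 genes of each list passed, where 3.3% of all genes tested were called. Of 16 bile acid genes tested 1 was lower and 0 higher: Abcb4, which moves phospholipid into bile, at −0.49 ± 0.13, with its call lost without DMHCA replicate 2 (adjusted p = 0.153), MePipHCA replicate 1 (0.212), MePipHCA replicate 2 (0.139) and in a fit of the 4 libraries alone (0.068). Of 24 PPAR-alpha and fatty acid oxidation genes tested, 1 was higher and 1 lower. Pdk4, which shuts pyruvate out of the mitochondrial oxidation pathway, had 31.3 and 29.3 CPM with MePipHCA and 15.97 and 18 CPM with DMHCA (0.83 ± 0.18). With vehicle it had 24.96 and 28.1 CPM, near MePipHCA. Its log2 fold change over vehicle was 0.20 for MePipHCA and −0.64 for DMHCA, neither called. Vnn1, a pantetheinase, had 23.99 and 23.5 CPM with DMHCA and 15.8 and 12.3 CPM with MePipHCA (−0.76 ± 0.18). Pdk4 lost its call without DMHCA replicate 1 (adjusted p = 0.0866) and MePipHCA replicate 1 (0.0733) and Vnn1 without DMHCA replicate 1 (adjusted p = 0.0839) and MePipHCA replicate 2 (0.26). Of 17 genes of glucose metabolism and insulin response tested, 2 were lower and 0 higher. Pklr, the liver pyruvate kinase, had 218 and 222 CPM with DMHCA and 143 and 151 CPM with MePipHCA (−0.58 ± 0.10, adjusted p = 0.000295), and Igfbp1, a secreted binder of insulin-like growth factors, had −0.53 ± 0.11 and was not called by DESeq2's Wald test (adjusted p = 0.0605).

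Several cell cycle genes were lower. Of 18 cell cycle genes tested, 5 were lower and 0 higher, against 2.01% of all genes lower. The list's median log2 fold change was −0.56. Top2a, a topoisomerase of dividing cells, had 15.1 and 21.02 CPM with DMHCA and 8.85 and 9.85 CPM with MePipHCA (−0.95 ± 0.21), Mki67, the Ki-67 antigen, 18.01 and 23.3 CPM with DMHCA and 11.9 and 10.4 CPM with MePipHCA (−0.90 ± 0.20), and Rrm2, the ribonucleotide reductase subunit, 67 and 69.8 CPM with DMHCA and 32.7 and 43.1 CPM with MePipHCA (−0.84 ± 0.13, adjusted p = 9.53e-05). Ccnd1, the G1 cyclin, had 60.5 and 59.98 CPM with DMHCA and 40.2 and 39.5 CPM with MePipHCA (−0.60 ± 0.11, adjusted p = 0.00156) beside 44.3 and 45.3 CPM with vehicle. The Top2a call was lost without DMHCA replicate 2 (adjusted p = 0.0864) and MePipHCA replicate 1 (0.0949) and that of Mki67 without DMHCA replicate 2 (adjusted p = 0.0672) and MePipHCA replicate 2 (0.12). Without DMHCA replicate 2 or either MePipHCA library 3 of the list were called. The summed level of the list was 409 and 425 CPM with DMHCA, 393 and 389 CPM with vehicle and 287 and 301 CPM with MePipHCA.

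Signalling targets added single genes. Over all genes tested 2.01% were lower, so 1 call says little about its list. Id2, an inhibitor of helix-loop-helix factors that BMP and TGF-beta signals induce, had 19.6 and 23.7 CPM with DMHCA and 6.29 and 9.798 CPM with MePipHCA (−1.40 ± 0.22, adjusted p = 0.000205), and Id1 had −0.85 ± 0.24, with its call lost without DMHCA replicate 2 (adjusted p = 0.271), MePipHCA replicate 1 (0.385), MePipHCA replicate 2 (0.0707), in a fit of the 4 libraries alone (0.066), at a common depth (0.0895) and by limma-voom (0.06). They were the 2 lower of 9 genes tested in that list, with 0 higher. Thbs1, the matrix protein thrombospondin, was the 1 lower of 11 YAP and serum response targets, at 56.6 and 71.2 CPM with DMHCA and 26.1 and 33.5 CPM with MePipHCA (−1.09 ± 0.14). Icam1, a leukocyte adhesion receptor, was the 1 lower of 14 NF-kB and inflammatory genes, at 92.3 and 96.8 CPM with DMHCA and 55.6 and 55.1 CPM with MePipHCA (−0.77 ± 0.11).

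Ctsl, the lysosomal protease cathepsin L, was the 1 higher of 18 lysosome genes (0.36 ± 0.07), and its call was lost without MePipHCA replicate 1 (adjusted p = 0.144). Dnaja1, a co-chaperone, was the 1 higher of 13 heat shock genes (0.51 ± 0.13), and it was lost without DMHCA replicate 1 (adjusted p = 0.269), MePipHCA replicate 1 (0.247) and MePipHCA replicate 2 (0.0821). Over all genes tested 1.29% were higher, so neither call says much about its list. By edgeR 0 of 21 interferon genes were called (2 at an unadjusted p of 0.05), 0 of 12 p53 targets (0 unadjusted), 0 of 14 clock genes (3 unadjusted) and 0 of 8 oxysterol-modifying genes (2 unadjusted). DESeq2 and limma-voom called 0 in the first 3 of these lists and 1 each in the oxysterol list.

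**Figure D3:**
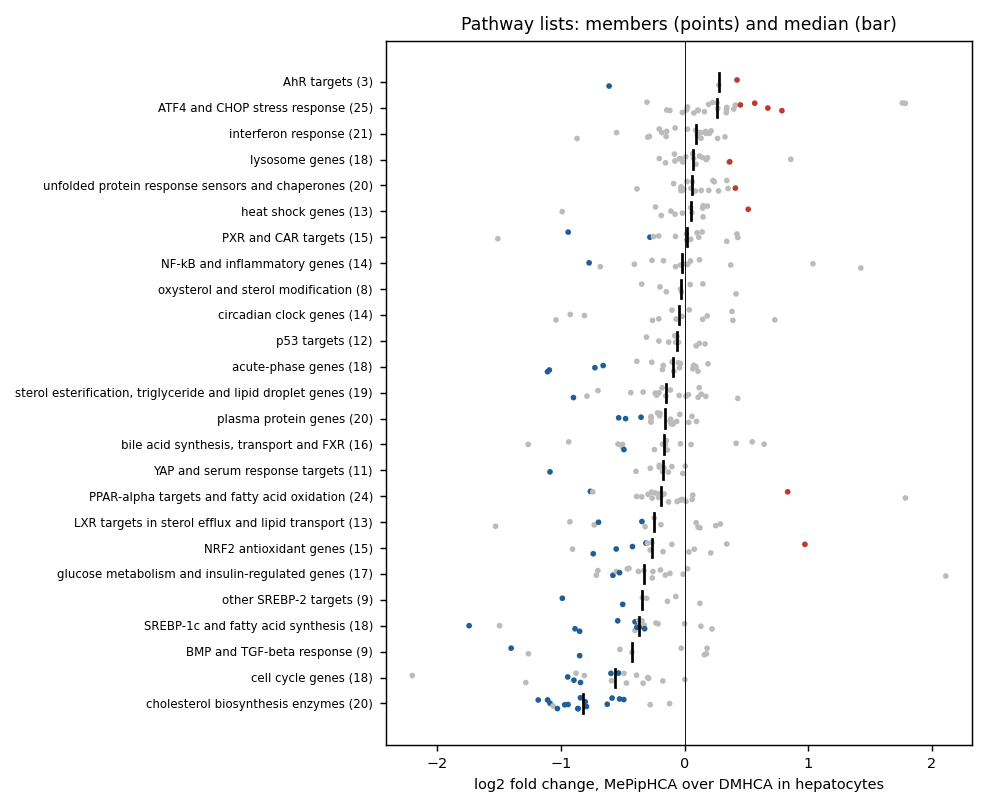
For each gene list, points show the log2 fold change of MePipHCA over DMHCA of the members tested that are reported here, with called members coloured and the list's median as a bar. The cholesterol synthesis list has the lowest median, −0.82, and the ATF4 and CHOP list a median of 0.26.

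The genes with the largest positive differences were mostly of low abundance. Aldh1l2, a mitochondrial enzyme of folate metabolism, led them with 14.8 and 20.97 CPM with MePipHCA and 3.14 and 4.01 CPM with DMHCA, beside 5.29 and 2.57 CPM with vehicle. Its log2 fold change was 2.32 ± 0.32 (adjusted p = 2.19e-05) over DMHCA and 2.12 (adjusted p = 0.000152) over vehicle. Inhba, the activin A subunit, had 105 and 128 CPM with MePipHCA and 52.6 and 43.7 CPM with DMHCA (1.28 ± 0.16, adjusted p = 6.14e-06), 2.43 times the DMHCA level, and lay 1.33 above vehicle (adjusted p = 5.7e-06). Slc6a19, a neutral amino acid transporter, had 24.9 and 24.9 CPM with MePipHCA and 10.9 and 11.6 CPM with DMHCA (1.14 ± 0.19), and Nrk, a kinase, had 19.1 and 21.8 CPM with MePipHCA and 8.895 and 7.36 CPM with DMHCA (1.33 ± 0.27). Mir17hg, the host transcript of a microRNA cluster, had 15.6 and 12.9 CPM with MePipHCA and 4.96 and 6.31 CPM with DMHCA (1.33 ± 0.23). With vehicle it had 11.98 and 13.6 CPM, near MePipHCA, and its log2 fold change over vehicle was −1.17 for DMHCA (not called). These 5 were called under all 20 alternatives.

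The other 10 of the 15 with the largest positive differences each lost the call under at least 1 alternative. Ckap4, an endoplasmic reticulum sheet protein, had 15.2 and 20.3 CPM with MePipHCA and 6.05 and 6.503 CPM with DMHCA (1.505 ± 0.28) and was lost without MePipHCA replicate 2 (adjusted p = 0.0658). Grb10, an adaptor that restrains insulin signalling, had 19.4 and 15.3 CPM with MePipHCA and 8.09 and 7.69 CPM with DMHCA (1.13 ± 0.23) and was lost without MePipHCA replicate 1 (adjusted p = 0.0949). Fosb, an immediate early factor, had 10.7 and 17.1 CPM with MePipHCA and 6.93 and 6.7 CPM with DMHCA (1.04 ± 0.25) and was lost without DMHCA replicate 1 (adjusted p = 0.102), DMHCA replicate 2 (0.0625) and MePipHCA replicate 2 (0.422). Star, the mitochondrial cholesterol importer, had 3.805 and 3.39 CPM with MePipHCA and 0.802 and 0.723 CPM with DMHCA (2.22 ± 0.60) and was lost without each of the 4 libraries in turn (adjusted p from 0.099 to 0.166), at a common depth (0.0744) and by limma-voom (0.0824).

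Lhfpl2 had 6.12 and 4.13 CPM with MePipHCA and 0.948 and 1.38 CPM with DMHCA and lost its call without each of the 4 libraries in turn (adjusted p from 0.069 to 0.342) and at a common depth (0.079). Calcrl, the receptor for calcitonin-related peptides, had 6.87 and 7.203 CPM with MePipHCA and 2.99 and 3.28 CPM with DMHCA and lost it without each of the 4 libraries in turn (adjusted p from 0.0708 to 0.215), in a fit of the 4 libraries alone (0.0759), at a common depth (0.155) and by limma-voom (0.0575). For Tceanc, with 7.11 and 3.65 CPM with MePipHCA and 1.82 and 1.18 CPM with DMHCA, the call was lost without DMHCA replicate 1 (adjusted p = 0.104), DMHCA replicate 2 (0.159), MePipHCA replicate 1 (0.483), at a common depth (0.0895) and by limma-voom (0.0816). Kbtbd7, with 10.1 and 8.26 CPM with MePipHCA and 4.52 and 3.42 CPM with DMHCA, lost it without each of the 4 libraries in turn (adjusted p from 0.0522 to 0.224). By the rule for naming, the libraries of the compounds did not overlap in any of these genes. Lrrc14b, which overlaps Ccdc127 on the other strand, had 13.6 and 9.85 CPM with MePipHCA and 6.27 and 4.34 CPM with DMHCA and was lost without DMHCA replicate 2 (adjusted p = 0.128) and MePipHCA replicate 1 (0.273). The transcript 6430548M08Rik had 7.11 and 9.11 CPM with MePipHCA and 4.45 and 1.97 CPM with DMHCA and was lost without DMHCA replicate 2 (adjusted p = 0.262), MePipHCA replicate 1 (0.0955), MePipHCA replicate 2 (0.295) and in a fit of the 4 libraries alone (0.0564). Their log2 fold changes ran from 1.14 to 2.12. A predicted gene, Gm15910, had the highest called value, 4.89 ± 1.38 (adjusted p = 0.0445), at a mean of 0.0365 CPM with DMHCA and 1.30 CPM with MePipHCA, and was below the level set for naming, with few counts behind its fold.

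At the other end, Plat, the tissue plasminogen activator, was the most abundant of the 15 genes with the largest negative differences, with 128 and 143 CPM with DMHCA and 40.8 and 50.5 CPM with MePipHCA beside 153 and 139 CPM with vehicle. Its log2 fold change was −1.56 ± 0.12 (adjusted p = 1.74e-09), so DMHCA libraries held 2.95 times as much. Tff1, a mucosal trefoil peptide, had 22.7 and 23.8 CPM with DMHCA and 5.71 and 8.74 CPM with MePipHCA (−1.66 ± 0.22), and LOC102631757, which overlaps it on the other strand, had 11.4 and 14.4 CPM with DMHCA and 3.06 and 4.45 CPM with MePipHCA (−1.75 ± 0.30), so the pair may share reads. Pak6, a p21-activated kinase, had 17.7 and 16.3 CPM with DMHCA and 4.14 and 8.26 CPM with MePipHCA (−1.42 ± 0.24), Mybl1, a Myb family factor, 14.5 and 17.8 CPM with DMHCA and 7.86 and 5.88 CPM with MePipHCA (−1.25 ± 0.22), and Mlph, the vesicle transport protein melanophilin, 14.9 and 13.1 CPM with DMHCA and 5.96 and 6.46 CPM with MePipHCA (−1.17 ± 0.22). These 6, like Acat2, Scd2 and Id2 above, were called under all 20 alternatives.

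Barx2, a homeobox factor, had the lowest called value of all, −1.80 ± 0.33, from 9.99 and 11.6 CPM with DMHCA and 4.05 and 2.28 CPM with MePipHCA, and lost its call without MePipHCA replicate 2 (adjusted p = 0.0619). Krt19, a keratin of bile duct cells and of hepatocytes in culture, had 9.04 and 11.2 CPM with DMHCA and 3.31 and 4.66 CPM with MePipHCA (−1.32 ± 0.36) and lost it without each of the 4 libraries in turn (adjusted p from 0.0553 to 0.284) and by limma-voom (0.0889). The summed cholangiocyte markers, Krt19 included, were 381 and 451 CPM with DMHCA and 455 and 466 CPM with MePipHCA. Cenpe, a kinetochore motor, had 9.84 and 12.3 CPM with DMHCA and 5.71 and 3.495 CPM with MePipHCA (−1.29 ± 0.29) and lost its call without MePipHCA replicate 2 (adjusted p = 0.223). Spns2, a transporter of sphingosine phosphate, had 5.91 and 8.803 CPM with DMHCA and 3.97 and 2.28 CPM with MePipHCA and lost it without DMHCA replicate 2 (adjusted p = 0.17), MePipHCA replicate 2 (0.364), in a fit of the 4 libraries alone (0.077) and at a common depth (0.0845). Bmyc had 7.51 and 7.36 CPM with DMHCA and 2.56 and 3.76 CPM with MePipHCA and lost it without each of the 4 libraries in turn (adjusted p from 0.0539 to 0.314), in a fit of the 4 libraries alone (0.0646) and at a common depth (0.0543). The peptidase-related gene Pm20d2 had 4.52 and 4.07 CPM with DMHCA and 1.41 and 1.32 CPM with MePipHCA and lost it without DMHCA replicate 1 (adjusted p = 0.136), MePipHCA replicate 1 (0.148), MePipHCA replicate 2 (0.184), in a fit of the 4 libraries alone (0.0744), at a common depth (0.118) and by limma-voom (0.0566).

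**Figure D4:**
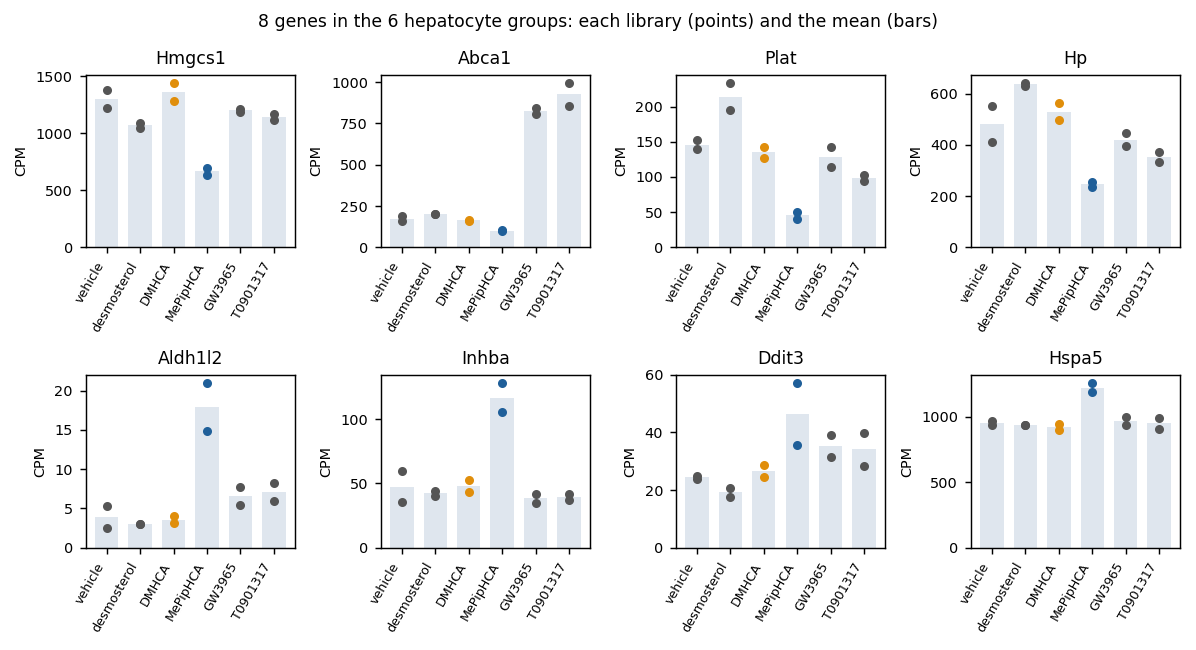
CPM of Hmgcs1, Abca1, Plat, Hp, Aldh1l2, Inhba, Ddit3 and Hspa5 in each hepatocyte library of the 6 groups, with bars at the group mean and points at the libraries. Hmgcs1, Abca1, Plat and Hp are lower, and the other 4 genes higher, in both MePipHCA libraries than in both DMHCA libraries. All were picked as called, so the separation is no further support.

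The same pair of compounds at the same dose separated far more genes in macrophages, a comparison with no library in common and 3 libraries per compound: 2639 of 11544 genes tested (22.9%), 1240 higher and 1399 lower with MePipHCA. Over the 10671 genes tested in both cell types, 155 were higher in hepatocytes and 1181 in macrophages, and 65 were higher in both, which is 41.9% of the hepatocyte genes and 5.50% of the macrophage genes. Lower genes numbered 205 and 1164, with 103 lower in both (50.2% and 8.85%). Genes called in opposite directions numbered 9 among the hepatocyte higher genes and 11 among the lower. These macrophage libraries held 3862655 to 7687855 counts, and the part of library number and depth in the larger count was not tested. Cell type cannot be told apart from medium (RPMI-1640 or Hepatozyme) or the date in the titles.

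The difference between the cell types was tested itself, in 1 fit of all 30 libraries, and 850 of 13700 genes (6.2%) were called. The MePipHCA-DMHCA difference was the higher in hepatocytes for 341 and the lower for 509. Cholesterol synthesis was lower with MePipHCA in both cell types, at 17 of 20 enzymes in hepatocytes and 14 of 20 in macrophages. In macrophages the median log2 fold change was −0.63. Over all genes tested, 265 of 13176 were lower in hepatocytes and 1399 of 11544 in macrophages. Hmgcs1 had −1.03 and −0.81, and the difference between them was not called (adjusted p = 0.214). Stard4 differed, with −0.50 in hepatocytes and −2.02 in macrophages (adjusted p of the difference = 7.19e-05).

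Abca1 took opposite directions. In macrophages it had 2099.5, 2159 and 1999 CPM with DMHCA and 2752, 2869 and 2785 CPM with MePipHCA, a log2 fold change of 0.43 (adjusted p = 8.82e-10), against −0.70 in hepatocytes, and the difference of −1.15 was called (adjusted p = 4.27e-11). Abcg1, an abundant transporter of macrophages, was higher with MePipHCA there at 0.34, but its hepatocyte level is too low to place it.

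Stress genes were higher with MePipHCA at far more members in macrophages. Over all genes tested, 1240 of 11544 were higher in macrophages and 170 of 13176 in hepatocytes. The difference between the compounds was lower in hepatocytes for 509 of 13700 genes. Of the 21 ATF4 and CHOP genes tested in macrophages, 18 were higher with MePipHCA, with a median log2 fold change of 1.22. In hepatocytes the median over the 25 genes tested was 0.26. The test of the difference covered all 25 genes, Phgdh included, and 16 had a lower difference in hepatocytes. Chac1, a glutathione-degrading enzyme, had 0.786, 0.349 and 0.267 CPM with DMHCA and 11.04, 8.96 and 12.3 CPM with MePipHCA in macrophages (4.67) and 50.2 and 41.5 CPM with DMHCA and 58.2 and 57.4 CPM with MePipHCA in hepatocytes (0.34). Trib3 had 3.36 in macrophages against 0.41, and Ddit3 2.20 against 0.79. Of the 20 unfolded protein response genes 19 were higher in macrophages, against 1 in hepatocytes, and 14 had a lower difference in hepatocytes. Hspa5 rose in both, by 0.79 in macrophages and 0.41 in hepatocytes (adjusted p of the difference = 0.00388).

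**Figure D5:**
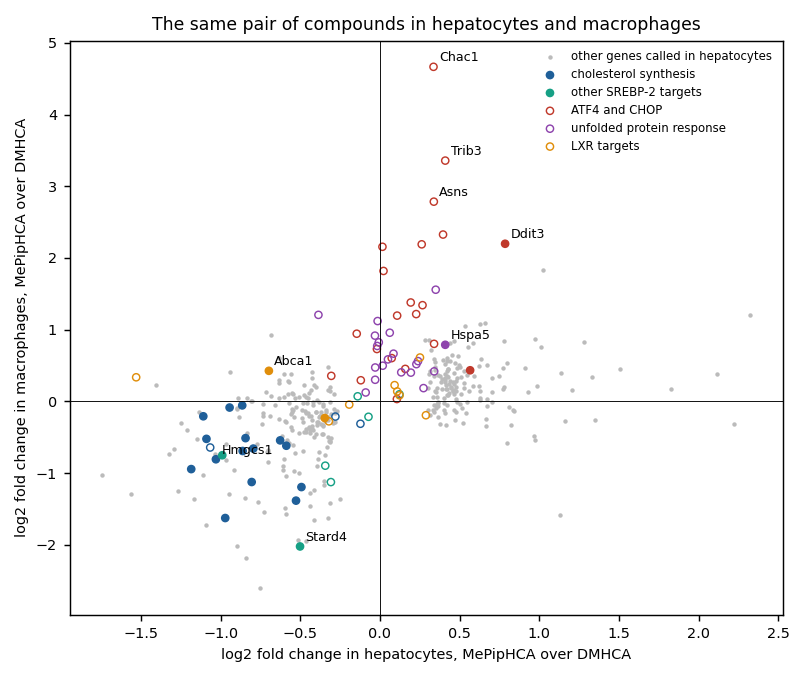
Log2 fold change of MePipHCA over DMHCA in hepatocytes (horizontal axis) and macrophages (vertical axis) for 5 gene lists (colours, filled where called in hepatocytes) and for the other genes called in hepatocytes (grey). The 18 cholesterol synthesis enzymes drawn lie below 0 on both axes, Abca1 lies below 0 in hepatocytes and above 0 in macrophages, and Chac1 and Trib3 reach far higher in macrophages.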

How the data were processed

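Polyadenylated RNA was sequenced from deoxy-UTP libraries, per the labels' protocols. The authors deposited raw read counts per RefSeq transcript for each library, and RPKM tables; STAR, HOMER and the mm10 build are named in the submitters' processing notes, with versions and strand setting not given in the sources used here. Deposited counts were the basis of every test and of CPM, and the deposited RPKM values served only to compare levels between genes. All columns used were mapped to a sample by title, and 0 were unmapped. The 4 libraries were tested within a fit of all 12 hepatocyte libraries (edgeR 4.0.16, R 4.3.3; genes kept by filterByExpr, TMM scaling, quasi-likelihood test, Benjamini-Hochberg threshold 0.05). That filter kept 13176 of 24453 genes, and 6 residual degrees of freedom estimated the spread. Macrophages were fitted the same way, and 1 fit of all libraries tested the difference between cell types. An SE is the log2 fold change divided by the square root of F. The steps were also run on simulated counts with the same spread for every gene, which does not test them at the spread between these libraries. Counting depth limits low genes, and intervals cover the spread between 2 libraries per group.

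The comparison and the gene lists were chosen with earlier results of these data known. Named genes were 12 fixed genes, up to 4 called members per list by size, the 15 largest called differences in each direction with a mean of at least 1 CPM and no overlap between groups, and the 10 largest differences between cell types. Enzymes and list members beyond these were named to complete a pathway, after their values were seen. Values of some genes are not reported here, though counts and medians of lists include them. Alternatives were DESeq2 size factors, a replicate block, no filter, a filter of CPM above 1 in 2 libraries, the 4 libraries alone, a common depth, DESeq2 1.42.0, limma-voom (limma 3.58.1) and leaving out each library; those tools for the vehicle comparisons were added after the data were seen. Replicates differed beyond sampling noise, with a chi-square per degree of freedom of 13.2 between the DMHCA libraries, the highest of the 6 hepatocyte groups, and 5.66 between the MePipHCA libraries, the lowest.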

Additional observations from a re-analysis of the deposited data

Results flagged for a closer look

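For 31 named genes the MePipHCA-DMHCA difference was itself different in the 2 cell types (edgeR, adjusted p below 0.05 in the fit of all 30 libraries). Values are the log2 difference in hepatocytes minus that in macrophages, where cell type cannot be told apart from medium and date. Stress genes had lower differences in hepatocytes: Chac1 −4.39, Trib3 −2.98, Phgdh −2.28, Ddit3 −1.45 and Hspa5 −0.41. Phgdh was too low in macrophages to be tested there on its own.

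Among lipid genes the value was negative for Soat2, which esterifies cholesterol (−3.37), Abcg1 (−1.84), Abca1 (−1.15), Mvd (−0.93), Lpin1 (−0.84), Scd2 (−0.76), Lss (−0.60) and Fasn (−0.52). Abcg1 was at 0.437 and 0.854 CPM with DMHCA and 0.0827 and 0.318 CPM with MePipHCA in hepatocytes, too low to place its difference there (95% interval −3.08 to 0.02). The value was positive for Star (2.52) and Stard4 (1.5), though Stard4 was lower with MePipHCA in both cell types. In macrophages Soat2 had 1.05, 0.349 and 0.534 CPM with DMHCA and 6.06, 7.31 and 7.04 CPM with MePipHCA, against 21.2 and 20.4 CPM with DMHCA and 22.9 and 23.8 CPM with MePipHCA in hepatocytes, where it was not called.

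Negative values were also found for Id2 (−1.64), Gclc (−0.69) and G6pdx (−0.45). Positive values were found for Serpina3n (3.94), Mex3b (3.43), Vegfc (3.28), Fscn1 (3.18), Extl1 (2.94), Rcsd1 (2.79), Grb10 (2.69), Lhfpl2 (1.65), 6430548M08Rik (1.62), Calcrl (1.41), Mki67 (1.10), Ckap4 (1.04) and Kbtbd7 (1.02). Serpina3n, Mex3b, Vegfc, Fscn1, Extl1 and Rcsd1 were not called in hepatocytes under any alternative, so their positive values do not show a rise there. Mki67 was lower with MePipHCA in both cell types, at −0.90 in hepatocytes and −2.02 in macrophages. Grb10 was higher with MePipHCA in hepatocytes (1.13) and lower in macrophages (−1.58), called in both.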

How the results depend on the processing

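Of the 80 named genes called, 39 passed under all 20 alternatives, 41 lost the call under at least 1 and 0 reversed. Of 13 named genes not called, 3 (Srebf1, Scd1 and Trib3) passed under some. Against 170 genes higher with MePipHCA, the count was 265 with no filter, 110 in a fit of the 4 libraries alone, 256 by DESeq2 and 266 by limma-voom, and leaving out a library gave 55 to 311. The 265 lower genes stayed within 1.5 times under those settings, and leaving out a library gave 122 to 468. For MePipHCA against vehicle the count was 286, and leaving out a library gave 114 to 207, and for DMHCA against vehicle 0 to 27. The cause of these shifts was not tested, beyond the smaller number of libraries or genes.

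Over all genes tested, same-numbered MePipHCA and DMHCA libraries correlated at −0.022 in their deviations from the group means. Over the 15 pairs of hepatocyte groups the correlation ran from −0.022 to 0.062. A correlation over all genes cannot exclude pairing at some of them. Gclc, for example, was higher in replicate 1 than in replicate 2 of every hepatocyte group (620 and 518 CPM with DMHCA, 417 and 359 CPM with MePipHCA). A replicate block gave 204 higher and 288 lower genes, 321 for MePipHCA and 1 for DMHCA against vehicle, 2682 in macrophages and 879 for the difference between cell types, and Trib3 passed with it (adjusted p = 0.0207). With 2 libraries per compound and 6627812 to 18626562 counts per library, small differences and genes below about 5 CPM were rarely resolved.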

Other observations

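Several subunits of the coats that move cargo between the endoplasmic reticulum and the Golgi were higher with MePipHCA in hepatocytes. These complexes were looked up after the gene values were seen, so their counts are a description. Over all genes tested in hepatocytes, 1.29% were higher. Of 11 COPII coat genes tested, 6 were higher and 0 lower (median log2 fold change 0.36): Sec23a (0.67 ± 0.09), Sec24d (0.54 ± 0.10), Sar1a (0.50 ± 0.11), Sec31a (0.45 ± 0.09), Sec24a (0.43 ± 0.09) and Sec13 (0.36 ± 0.10). Of 9 COPI coat genes, 4 were higher and 0 lower (median 0.34), with Copb2 at 0.53 ± 0.08. Of 18 genes of the signal recognition particle, its receptor and the translocon, 4 were higher and 0 lower, namely Srpr, Srprb, Ssr1 and Ssr3, with log2 fold changes of 0.46, 0.42, 0.35 and 0.34. Oligosaccharyltransferase had 2 of 12 higher, Ostc and Stt3a. In macrophages the higher genes numbered 7 of 10 for COPII, 7 of 9 for COPI, 13 of 17 for signal recognition and the translocon, and 9 of 12 for oligosaccharyltransferase. Higher genes were far more common there, at 1240 of all 11544 genes tested. With each of the 4 hepatocyte libraries left out in turn, COPII numbered 4 without DMHCA replicate 1, 5 without DMHCA replicate 2, 4 without MePipHCA replicate 1 and 3 without MePipHCA replicate 2, and COPI 2, 4, 2 and 1 in the same order. Without DMHCA replicate 2 the COPI and oligosaccharyltransferase counts did not change. Signal recognition and translocon genes then numbered 1, 3, 1 and 1, and oligosaccharyltransferase 0, 2, 1 and 0.

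Cytoskeletal genes, also looked up after their values were seen, were lower with MePipHCA at 3 of 7 actins, actinins and filamins and at 3 of 5 epithelial keratins tested, with 0 higher in either. Over all genes tested 2.01% were lower. Actb, the cytoplasmic beta-actin often used for normalisation, had a log2 fold change of −0.57 ± 0.11 (adjusted p = 0.00118), from 10425 and 6901 CPM with DMHCA to 5636 and 6016 CPM with MePipHCA. The groups did not overlap, but DMHCA replicate 1 stood well above replicate 2, and without it the log2 fold change was −0.25 (adjusted p = 0.12). Flnc had −0.66 ± 0.08 and Actn4 −0.47 ± 0.08, and among the keratins Krt8 had −0.32 ± 0.07 and Krt18 −0.25 ± 0.06. Over vehicle, MePipHCA was called lower for Flnc (−0.45) and Actn4 (−0.31). It was not called for Actb (−0.24), Krt8 (−0.09), Krt18 (−0.06) or Krt19 (−1.27). For these genes DMHCA over vehicle ran from 0.05 for Krt19 to 0.33 for Actb, none called. The lower actin-group genes numbered 2 without DMHCA replicate 1 and 3 without each of the others, and the keratins 0, 2, 1 and 0 without DMHCA replicate 1, DMHCA replicate 2, MePipHCA replicate 1 and MePipHCA replicate 2.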
